A study of Homo sapiens with 4 samples.

Results

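The BH3-only apoptosis initiators are the genes BBC3 (PUMA), PMAIP1 (NOXA), BCL2L11 (BIM), BID, BAD, BMF, BIK and HRK. They were picked out by symbol, and all 8 were found among the 20263 genes of the count table. BH3-only proteins start the mitochondrial route of apoptosis: each carries a short helix, the BH3 domain, that binds in a groove of the guardian proteins BCL2, BCL-XL (gene BCL2L1), MCL1 and their relatives. A guardian that is occupied in this way can no longer hold the effectors BAX and BAK, which then open pores in the outer mitochondrial membrane, release cytochrome c and set off the caspases. Some members, BIM, PUMA and cleaved BID among them, can also engage BAX and BAK directly, while others act mainly by occupying particular guardians.

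RNA was sequenced from 2 groups of 2 libraries of MDA-MB-231, a long-established line of human breast cancer cells that lack hormone receptors and HER2 amplification. Cells received either the solvent DMSO or RB-BC, which derives from ribociclib, an inhibitor of the kinases CDK4 and CDK6, for 24 h. The sample labels name RB-BC and the treatment protocol names Rib_CA, whether these are the same compound is not stated, and the sources used here give no dose. All cells grew in the same serum-containing medium, and the series addresses how RB-BC acts on breast cancer cells.

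Library totals ran from 34774542 to 42786422 counts. All 8 cell line markers (VIM, CD44, AXL and others) had counts in every library, and their summed level was 9012.0 to 11150.12 CPM (counts scaled by the library total). The 8 leukocyte markers summed to 1.01 to 2.08 on the same scale, with CD3E and NKG7 among those at 0 throughout, and the 8 endothelial and stromal markers to 13.16 to 17.33. The luminal markers summed to 512.16 to 614.4 CPM, mostly from KRT8 and KRT19, whereas CDH1 had at most 2 counts in a library. DMSO 2 stood apart from the other 3 libraries in that 21.7% of its counts came from mitochondrially encoded genes, against 8.68% to 10.3%. Nothing in the labels says that the libraries of a group came from separate cultures, so p-values reflect only how far these libraries differ, possibly for technical reasons.

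The feature that unites the 8 genes is shown first, as the coding letters of the core of the BH3 domain. The stretches below are reference sequence from GENCODE 29 transcripts, 30 bases each, 5′ to 3′ on the coding strand, and the capitals mark the leucine codon and the aspartate codon that stand 5 codons apart in every member.
BBC3: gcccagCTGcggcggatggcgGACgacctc
PMAIP1: actcaaCTCaggagatttggaGACaaactg
BCL2L11: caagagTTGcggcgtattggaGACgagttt
BID: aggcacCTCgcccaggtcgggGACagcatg
BAD: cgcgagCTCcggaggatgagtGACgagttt
BMF: cgaaagCTTcagtgcattgcaGACcagttc
BIK: ctgcggCTGgcctgcatcgggGACgagatg
HRK: gcccggCTCaaggcgctaggcGACgagctg
For each gene 1 transcript tagged as principal was used, the first by identifier where several were tagged. Lengths and codon numbers below hold for that transcript and may differ in other forms of the gene. A narrow form of the core was found at 1 place only in each. It is a leucine, any pair of residues, a bulky hydrophobic residue, a small residue (glycine, alanine or serine) and an aspartate, in this order. The looser form, a leucine and an aspartate with any 4 residues between them, occurred 4 times in BIK, 2 times in BID and 1 time in the other members. The coding sequences differ widely in length outside this core, from 54 codons in PMAIP1 and 91 in HRK to 193 in BBC3 and 241 in BID. The leucine is codon 29 of PMAIP1, 37 of HRK, 61 of BIK, 92 of BCL2L11, 114 of BAD, 136 of BID, 137 of BMF and 141 of BBC3.

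After RB-BC, transcripts of BBC3 and PMAIP1 were higher, and no BH3-only gene was called lower. BBC3 rose 5.59-fold and PMAIP1 2.13-fold. BID and BAD stood 1.47-fold and 1.58-fold higher without passing the test, BIK, BMF and HRK were scarce, and BCL2L11 (BIM) was at about the same mean in both groups with a large spread. Of the 7 members with enough counts to be tested, 2 rose and 0 fell by edgeR's quasi-likelihood test with Benjamini-Hochberg adjustment at a threshold of 0.05. Over all 13744 genes tested, 8.58% were called higher and 7.53% lower. At an unadjusted p under 0.05, 4 members were higher and 0 lower, beside 18.2% and 17% of all genes tested. DESeq2 called 3 members higher and 0 lower, beside 11.9% and 11.6% of all genes. The median log2 fold change of the 7 tested members was 1.08, beside −0.002 over all genes tested. This median is the value of BMF, whose DMSO libraries differed widely. Levels are given below as TMM-scaled CPM, which are counts relative to the library total after a correction of library size by the trimmed mean of M-values, computed here from the deposited counts. In bulk RNA, a change in the share of cells that express a gene and a change in RNA per cell cannot be told apart.

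**Figure D1:**
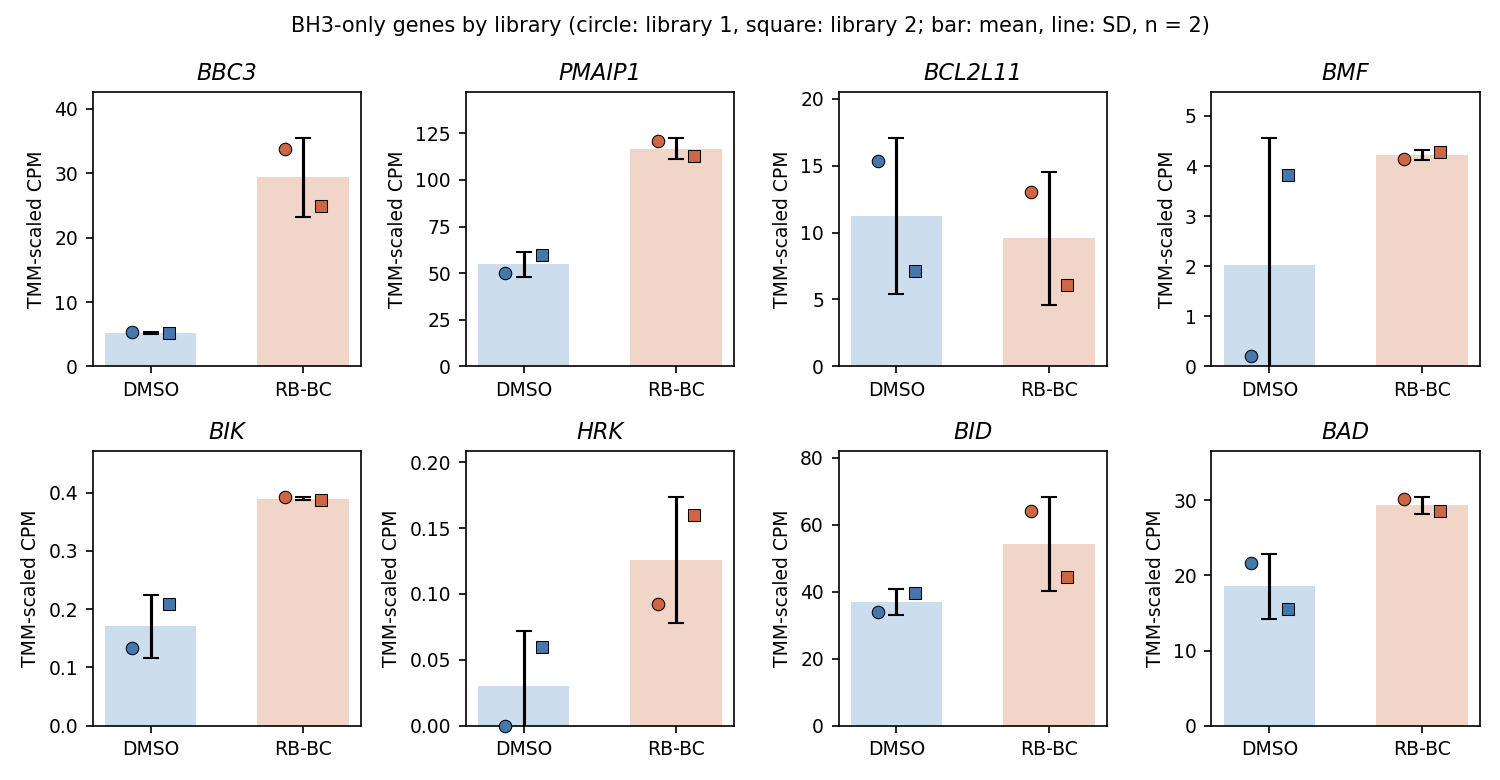
TMM-scaled CPM (linear y axis from 0, own scale per gene) of the 8 BH3-only genes in DMSO and RB-BC. Points are libraries (circle 1, square 2), bars are means and lines the SD of n = 2 libraries. BBC3 and PMAIP1 separate widely between groups, BCL2L11 overlaps, and the circle and the square lie far apart for BMF in DMSO.

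BBC3 encodes PUMA, which binds all the main guardians and is switched on at the transcript level by several stress factors. Its level was 5.36 CPM in DMSO 1 and 5.13 CPM in DMSO 2 from 202 and 172 reads, whereas RB-BC 1 reached 33.7 CPM and RB-BC 2 reached 25.0 CPM, from 1462 and 1095 reads. The DMSO libraries were nearly alike, and both RB-BC libraries lay far above them, with RB-BC 1 the higher. The group means were 5.25 ± 0.165 CPM and 29.3 ± 6.17 CPM (SD, n = 2). The log2 fold change was 2.48 ± 0.21 (SE; 95% interval 1.97 to 2.99; edgeR adjusted p = 0.00606). This change lay at percentile 99.2 of all genes tested. BBC3 was the only member to pass in all 4 fits with a library left out, where its log2 fold change ran from 2.25 to 2.68.

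PMAIP1 encodes NOXA, a small protein that binds mainly MCL1 and promotes its breakdown. Among the BH3-only genes it had the most counts in every library, 1889 and 1996 in DMSO and 5247 and 4941 in RB-BC. The levels were 50.2 CPM and 59.6 CPM in DMSO 1 and 2, and 121 CPM and 113 CPM in RB-BC 1 and 2. The groups stood well apart and each pair lay close together. The log2 fold change was 1.09 ± 0.15 (SE; 95% interval 0.71 to 1.47; edgeR adjusted p = 0.0129). In edgeR fits that left out RB-BC 1 or RB-BC 2 the value was 1.04 or 1.14. The call was lost in either case although the size of the change was nearly the same. These fits also called far fewer genes over the whole table than the fit of all libraries. With DMSO 2 left out, whose mitochondrial share was high, PMAIP1 was at 1.22 and BBC3 at 2.45, and both passed.

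BCL2L11 encodes BIM, which binds all the guardians and is held in check by survival signalling through FOXO factors and ERK. DMSO 1 held 15.4 CPM and DMSO 2 held 7.13 CPM, while RB-BC 1 and RB-BC 2 held 13.05 and 6.07 CPM. In both groups the second library held less than the first, by a ratio of 0.464 in DMSO and 0.465 in RB-BC, and the groups overlapped. The log2 fold change was −0.24 ± 0.48 (SE; edgeR adjusted p = 0.754), and its 95% interval, −1.40 to 0.93, holds both a fall and a rise of substantial size. The direction turned with the libraries used, from −0.89 without RB-BC 1 to 0.42 without DMSO 1.

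BID is a cytosolic protein that becomes active when caspase-8 cleaves it, and so links death receptors to mitochondria. Its level was 34.1 CPM and 39.7 CPM in DMSO 1 and 2, and 64.2 CPM and 44.4 CPM in RB-BC 1 and 2. RB-BC 2 lay only a little above DMSO 2, and RB-BC 1 stood highest. The log2 fold change was 0.56 ± 0.21 (SE; 95% interval 0.04 to 1.08; edgeR adjusted p = 0.124), which did not pass. Leaving out RB-BC 1 brought it to 0.27, and leaving out RB-BC 2 brought it to 0.80. CASP8, the gene of the protease that cleaves BID, was at 0.34 ± 0.16 (SE; edgeR adjusted p = 0.180).

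BAD binds BCL2, BCL-XL and BCL-w, and its protein is kept inactive by phosphorylation and 14-3-3 proteins. It had 21.6 CPM and 15.5 CPM in DMSO 1 and 2, and 30.1 CPM and 28.5 CPM in RB-BC 1 and 2. The groups did not overlap, and the DMSO pair was spread more widely than the RB-BC pair. The log2 fold change was 0.66 ± 0.20 (SE; 95% interval 0.17 to 1.15; edgeR adjusted p = 0.0740). It passed with DESeq2 (0.66, DESeq2 adjusted p = 0.0363) and when edgeR was run with DMSO 1 left out (0.92, adjusted p = 0.0178). With DMSO 2 left out it was at 0.44 (edgeR adjusted p = 0.0704), and over all alternatives its adjusted p ran from 0.0178 to 0.325.

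BMF can be anchored to the cytoskeleton through a dynein light chain. It had 8 counts in DMSO 1 and 128 in DMSO 2, beside 180 and 188 in RB-BC 1 and 2. The corresponding levels were 0.213, 3.82, 4.15 and 4.29 CPM. DMSO 1 was 18.0-fold below DMSO 2, and DMSO 2 lay close under both RB-BC libraries. The result therefore turned on the DMSO library: the log2 fold change was 1.08 ± 0.98 (SE; edgeR adjusted p = 0.469) with all 4 libraries, 4.29 once DMSO 2 was left out (edgeR adjusted p = 0.00717) and 0.14 once DMSO 1 was left out (edgeR adjusted p = 0.672).

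BIK, a BH3-only protein of the endoplasmic reticulum, gave 5 and 7 reads in DMSO 1 and 2 and 17 in each RB-BC library. These levels, 0.133 to 0.392 CPM, are too low for a firm comparison, and the log2 fold change of 1.19 ± 0.57 (SE; edgeR adjusted p = 0.193) did not pass. HRK, known mainly from dying neurons, had 0 and 2 reads under DMSO, 4 and 7 under RB-BC, and failed the filter on low counts, so no fold is given. A count of 0 in a library allows up to 3 counts.

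**Figure D2:**
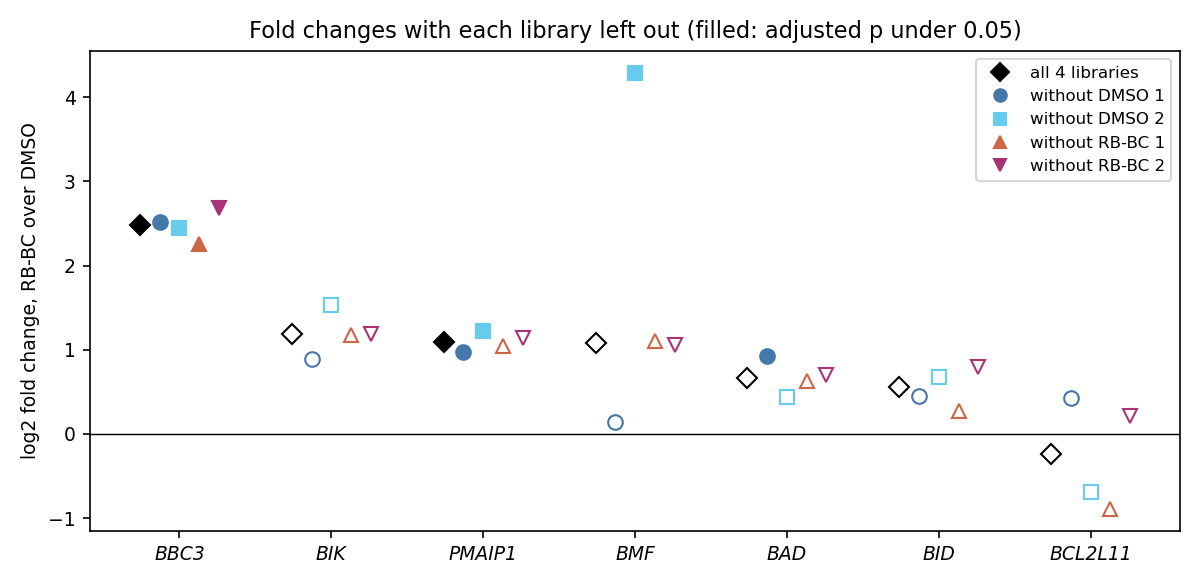
Log2 fold change, RB-BC over DMSO, of the 7 tested BH3-only genes with all 4 libraries (diamond) and with each library left out; filled symbols passed edgeR's test at an adjusted p under 0.05. BBC3 is filled throughout, PMAIP1 loses its call without either RB-BC library, BMF spans 0.14 to 4.29, and BCL2L11 falls on both sides of 0.

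For 7 of the 8 members, HRK included, both RB-BC libraries lay above both DMSO libraries, while BCL2L11 overlapped. Among the 7 tested members 6 were separated upward in this way and 0 downward, beside 33.1% and 32.1% of all genes tested. With 2 libraries against 2 an exact two-sided permutation test cannot give a p below 0.33, so such a separation has no test of its own. Summed over the 8 genes, the level was 127 and 131 CPM in DMSO 1 and 2 and 267 and 222 CPM in RB-BC 1 and 2. The DMSO sums were close together and both RB-BC sums were well above them.

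The make-up of this sum differed between groups, with a larger share for BBC3 and smaller shares for BID and, less clearly, BCL2L11 in both RB-BC libraries. Shares are of a common total, so a larger share for some genes lowers those of others. BBC3 took 4.23% of the BH3-only counts in DMSO 1 (95% Wilson interval 3.69% to 4.83%) and 3.92% in DMSO 2 (3.38% to 4.53%). It took 12.6% in RB-BC 1 (12.1% to 13.3%) and 11.3% in RB-BC 2 (10.7% to 11.9%). These intervals take each read as an independent draw and leave out differences between libraries. PCR copies of a molecule were not marked and may be counted repeatedly, so counting error may be larger than the intervals show. BCL2L11 took 12.1% and 5.44% in DMSO and 4.89% and 2.74% in RB-BC, and here both RB-BC shares lay below both DMSO shares while its level overlapped. The Wilson intervals of its share in DMSO 2 (4.8% to 6.2%) and RB-BC 1 (4.5% to 5.3%) overlapped, however. PMAIP1 held 39.5% and 45.4% in DMSO and 45.4% and 50.9% in RB-BC, the largest share in each library, and DMSO 2 was level with RB-BC 1. BID held 26.8% and 30.3% in DMSO and 24.1% and 20.03% in RB-BC, so its RB-BC shares also lay below its DMSO shares although its level did not. These shares are of reads, and a longer transcript gives more reads.

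**Figure D3:**
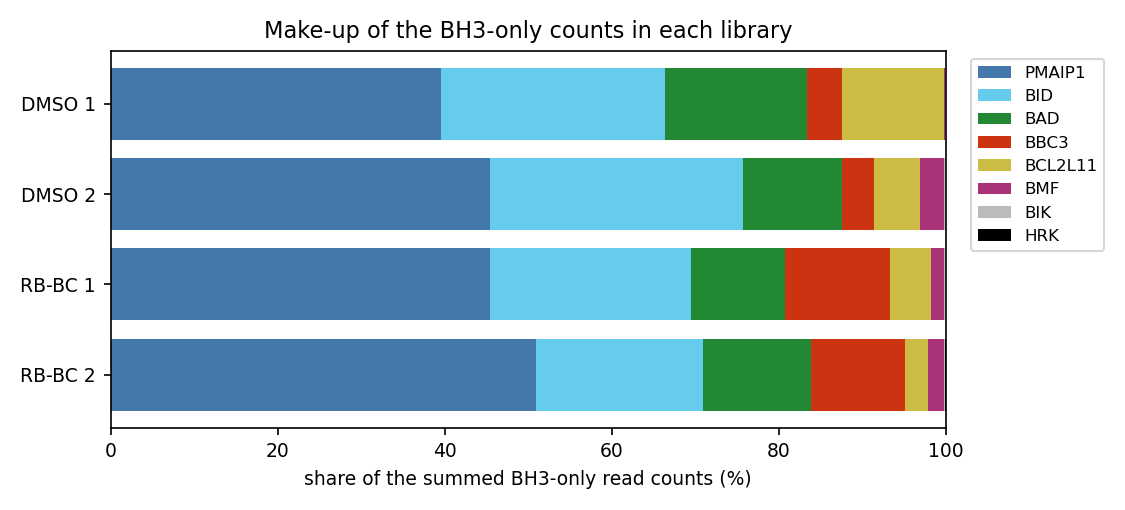
Share of the summed BH3-only read counts (x axis, %) taken by each gene in each of the 4 libraries (rows). The BBC3 segment runs from 3.92% to 4.23% in DMSO and from 11.3% to 12.6% in RB-BC, and PMAIP1 is the largest segment in each row.

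Per kilobase of exon (lengths from GENCODE 29, as TMM-scaled CPM per kb), PMAIP1 was the most abundant member, at 22.4 and 26.6 in DMSO and 54.1 and 50.4 in RB-BC. BAD followed, at 12.7 and 9.07 in DMSO and 17.6 and 16.7 in RB-BC, and then BID, at 7.66 and 8.93 and at 14.4 and 9.98. On the same scale BBC3 had 1.69 and 1.61 in DMSO and 10.6 and 7.86 in RB-BC. BBC3 was thus below BID in every library, in DMSO by far more than the spread. In RB-BC the genes lay closer, and BBC3 in RB-BC 1 stood above BID in RB-BC 2. BCL2L11, at 2.31 and 1.07 in DMSO, could not be ranked against BBC3 there, but in RB-BC it was below it, at 1.96 and 0.911. BMF reached at most 0.787, BIK 0.411 and HRK 0.023. The annotation behind the deposited counts is not known, so this order rests on lengths that may differ from those of the counting.

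Among the BCL2 guardians, which the BH3-only proteins bind, MCL1 rose and BCL2L1 did not pass. Of 6 listed genes 5 were tested, 2 rose and 0 fell, beside 8.58% and 7.53% of all genes tested. MCL1 had 277 and 248 CPM in DMSO and 451 and 467 CPM in RB-BC, a log2 fold change of 0.80 ± 0.15 (SE; edgeR adjusted p = 0.0218). MCL1 lost its call in edgeR fits that left out RB-BC 1 (0.83, adjusted p = 0.172) or RB-BC 2 (0.78, adjusted p = 0.159). BCL2A1, an inducible guardian, had 0 reads in both DMSO libraries and 25 and 11 under RB-BC. Its mean RB-BC level, 0.414 CPM, was 4.89-fold that of a floor of 3 counts in each DMSO library. This fold leaves out counting error in the RB-BC libraries. DESeq2 gave BCL2A1 no adjusted p, and without RB-BC 1 BCL2A1 failed the filter on low counts. In edgeR fits its call was lost without either DMSO library (adjusted p = 0.0604 and 0.0517), without RB-BC 2 (adjusted p = 0.0702) and with no filter on low counts (adjusted p = 0.0533). BCL2L1 was at −0.18 ± 0.21 (SE; edgeR adjusted p = 0.587) and BCL2 at −0.82 ± 0.29 (SE; edgeR adjusted p = 0.103). Named after its values were seen, BCL2L2 (BCL-w) gave 147 and 79 reads under DMSO, 135 for RB-BC 1 and 1073 for RB-BC 2, so its value of 2.14 ± 0.89 (SE; edgeR adjusted p = 0.146) came from 1 library; a read-through gene overlaps it. None of the 3 effectors passed edgeR's test, with BAX at 0.07 ± 0.20 and BAK1 at 0.24 ± 0.16 (SE), 0 of them also at an unadjusted p under 0.05 and with DESeq2 or limma-voom.

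**Figure D4:**
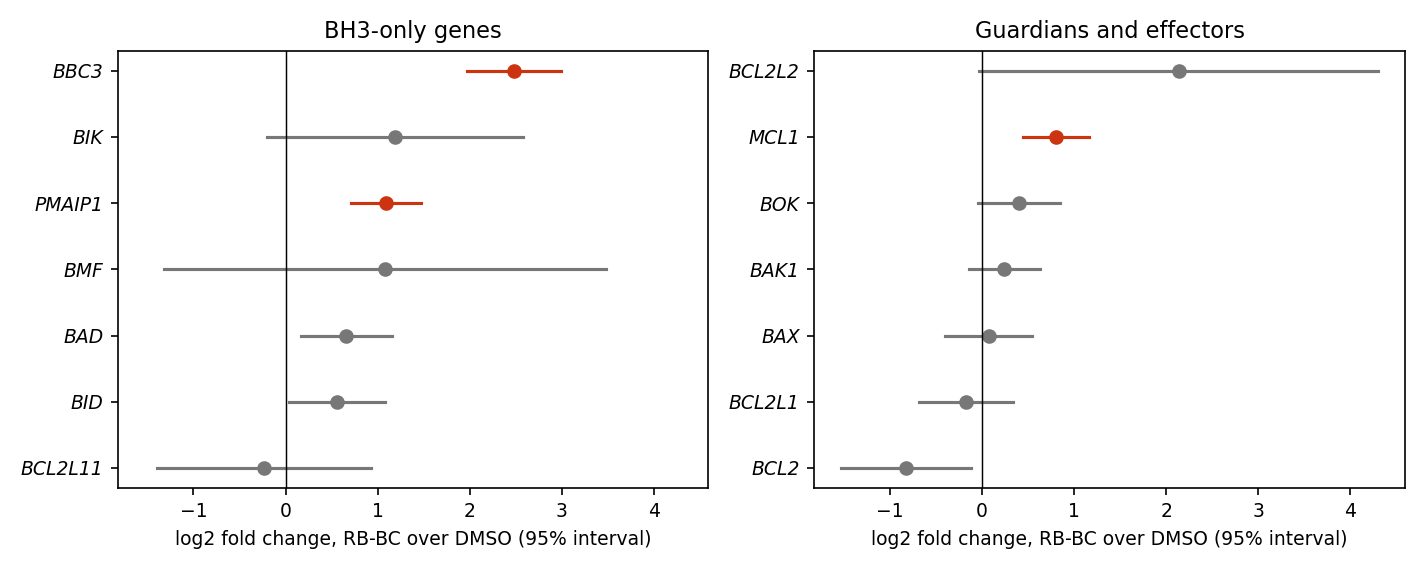
Log2 fold change, RB-BC over DMSO (x axis), with 95% intervals for the 7 tested BH3-only genes (left) and for guardians and effectors (right); BCL2A1, with no DMSO counts, is not drawn. Red marks an adjusted p under 0.05: BBC3 at 2.48, PMAIP1 at 1.09 and MCL1 at 0.80.

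Ratios taken within a library do not depend on how libraries are scaled, and were computed for 5 members against MCL1, BCL2L1 and BCL2, a choice made after the values were seen. Per 1000 MCL1 counts there were 19.4 and 20.7 BBC3 counts in DMSO 1 and 2, and 74.8 and 53.5 in RB-BC 1 and 2. BBC3 thus rose beyond MCL1, its lowest RB-BC ratio standing 2.59-fold above its highest DMSO ratio. PMAIP1, whose protein binds mainly MCL1, gave 181 and 240 in DMSO and 268 and 242 in RB-BC. DMSO 2 and RB-BC 2 were nearly level here, with the lowest RB-BC ratio just above the highest DMSO ratio. Per 1000 BCL2L1 counts, PMAIP1 gave 77.6 and 64.0 in DMSO and 172 and 163 in RB-BC, which are well apart. The ratios of BID, BAD and BCL2L11 to MCL1 overlapped between the groups. Of the 15 ratios 10 were higher in both RB-BC libraries, 0 were lower and 5 overlapped. They share counts and are not independent, and no matching share over other gene pairs was computed. Of single genes tested, 33.1% were higher in both RB-BC libraries. BCL2 itself had 24.9 and 16.2 CPM in DMSO and 9.34 and 13.9 CPM in RB-BC, which alone raises the ratios to it.

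Transcription factors known to act on BH3-only genes moved in both directions. Of 14 tested, 5 rose and 2 fell, with a median log2 fold change of 0.70. Over all genes tested, 8.58% were called higher and 7.53% lower, with a median of −0.002. CEBPB rose by 2.77 ± 0.17 (SE), DDIT3 (CHOP, a stress factor that can raise BBC3 and BCL2L11) by 2.12 ± 0.27, and ATF4, the main factor of the integrated stress response and a known activator of PMAIP1, by 1.38 ± 0.15, with edgeR adjusted p = 0.00378, 0.0111 and 0.00853. ATF4 missed the threshold when RB-BC 1 was left out (1.34, edgeR adjusted p = 0.0657). E2F1 fell by 1.08 on the log2 scale (edgeR adjusted p = 0.0141) and did not pass without either RB-BC library (edgeR adjusted p = 0.0895 and 0.0959). FOXO3 and FOXO4, which can raise BCL2L11 and BBC3, also rose, by 0.74 and 0.80 (edgeR adjusted p = 0.0316 and 0.0381), and TP73 fell by 1.78 (edgeR adjusted p = 0.0246). In edgeR fits without RB-BC 1 none of these 3 passed (adjusted p = 0.178, 0.256 and 0.127), and without RB-BC 2 neither FOXO gene did (adjusted p = 0.194 and 0.165). FOXO4 also lost its call with the replicate number as a block (edgeR adjusted p = 0.055) and with library totals alone (edgeR adjusted p = 0.0823). The edgeR fits without an RB-BC library called far fewer genes over the whole table than the fit of all 4 libraries. Calls were thus lost in them over the whole table and not in this list alone.

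Of 24 genes whose products act on BH3-only proteins, 2 rose and 1 fell, which is no more than the share over all genes tested. There 8.58% were called higher and 7.53% lower. YWHAB, a 14-3-3 protein of the kind that holds phosphorylated BAD, fell from 393 and 368 CPM to 135 and 126 CPM, a log2 fold change of −1.54 ± 0.14 (SE; edgeR adjusted p = 0.00685). None of the other 14-3-3 genes listed (YWHAE, YWHAG, YWHAH, YWHAQ, YWHAZ and SFN) was called. PIM3 and PIM1, kinases that can phosphorylate BAD, rose by 1.48 ± 0.19 and 0.96 ± 0.16 (SE; edgeR adjusted p = 0.0107 and 0.0170). PIM2 was at 0.03 ± 0.23 (SE; edgeR adjusted p = 0.936). In the edgeR fit without RB-BC 1, YWHAB was at −1.59, PIM3 at 1.25 and PIM1 at 0.83, and these calls were lost. PIM1 also lost its call when RB-BC 2 was left out (1.08). Both fits called far fewer genes over the whole table than the fit of all 4 libraries, so such losses were not limited to this list. Of 5 less typical BH3 proteins BNIP3, a mitophagy receptor, rose by 0.85 ± 0.16 (SE; edgeR adjusted p = 0.0241), a call that neither RB-BC library alone sustained (edgeR adjusted p = 0.180 and 0.132). Of 8 genes of the mitochondrial execution step HTRA2, a protease released from mitochondria, rose by 0.69 ± 0.17 (SE; edgeR adjusted p = 0.0463). This call was lost with library totals alone as the scaling (edgeR adjusted p = 0.100), with limma-voom (adjusted p = 0.0508) or in edgeR fits without DMSO 2, RB-BC 1 or RB-BC 2 (adjusted p = 0.0598, 0.343 and 0.106).

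The genes whose pattern over the 4 libraries was closest to that of BBC3 were ZNF382, NFKBIA, which encodes an inhibitor of NF-kB, and SPAG4, at distances of 0.0993, 0.155 and 0.162. Distance here is Euclidean, on log2 CPM centred on each gene's own mean. For PMAIP1 the closest were THBS3, the ribosomal protein gene RPS29 and the aldolase gene ALDOC, at 0.0318, 0.0392 and 0.0442. With 4 libraries, such likeness says little more than that these genes differed between groups by a similar amount, with log2 fold changes of 2.46 to 2.60 for the first set and 1.06 to 1.10 for the second.

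The promoters of BBC3 and PMAIP1 are shown because these members rose together. They are the RefSeq windows on GRCh38.p14 from 250 bases before to 50 bases after the annotated start, 5′ to 3′ on the gene's strand, chr19:47232618-47232917 (minus strand) for BBC3 and chr18:59899746-59900045 (plus strand) for PMAIP1. Capitals mark the matches to the motifs searched.
BBC3 promoter: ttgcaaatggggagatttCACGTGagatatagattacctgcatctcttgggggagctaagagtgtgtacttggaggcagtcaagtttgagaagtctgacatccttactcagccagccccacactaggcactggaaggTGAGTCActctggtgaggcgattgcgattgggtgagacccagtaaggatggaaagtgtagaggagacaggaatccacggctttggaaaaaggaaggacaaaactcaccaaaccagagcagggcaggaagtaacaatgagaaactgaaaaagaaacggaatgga
PMAIP1 promoter: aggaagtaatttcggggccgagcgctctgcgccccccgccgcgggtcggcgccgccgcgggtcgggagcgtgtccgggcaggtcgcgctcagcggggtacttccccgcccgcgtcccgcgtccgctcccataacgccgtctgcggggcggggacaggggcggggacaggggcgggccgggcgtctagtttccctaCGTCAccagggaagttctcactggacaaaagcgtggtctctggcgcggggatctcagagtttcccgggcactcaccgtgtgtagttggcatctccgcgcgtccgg
The motifs were TGACG (the half-site of ATF and CREB factors), TGATGCAA (ATF4 with C/EBP), TTGCGCAA (C/EBP), TGACTCA (AP-1), GTAAACA (FOXO), TTTCGCGC and TTTGGCGC (E2F) and CACGTG (E-box), each on both strands. In the BBC3 window stood an AP-1 match 113 to 107 bases before the start and an E-box. The PMAIP1 window held a TGACG match on the opposite strand, 55 to 51 bases before the start, so the windows of BBC3 and PMAIP1 shared none of these motifs. The BBC3 window had 48.0% G and C, and that of PMAIP1 71.3%. Such matches describe letters and not binding sites, and other annotated starts of these genes were not looked at.

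Windows were found for 7 of the 8 members. TGACG was in the windows of 4 of these 7 genes, PMAIP1, BMF, HRK and BAD. Some genes have several annotated starts, and counted by window it was in 5 of the 13 windows of the members (38.5%), beside 24.6% of all 35116 windows in the table. The BAD windows overlap and hold the same match, so this count by window includes that match repeatedly. The matches are set side by side here because the members that hold them behaved differently; the capitals are the motif or its reverse complement, with 10 bases on each side.
PMAIP1: agtttccctaCGTCAccagggaagt
BMF: gtcctcggcgTGACGcgcagggggg
HRK: ataatagcgcCGTCAgcacaacaaa
BAD: cctacccgagTGACGttccgagagg
Of these 4 genes PMAIP1 rose, BAD and BMF did not pass, and HRK was too low to test. They lay 55, 57, 16 and 54 bases before the start at their first base, in the order printed. The FOXO letters were found in the BCL2L11 window, beside 3.42% of all windows, and the AP-1 letters in that of BBC3, beside 4.95%. CACGTG was in the windows of BBC3 and BID, beside 7.26%. The other motifs listed had no match in the members' windows.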

How the data were processed

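Read counts per Ensembl gene were deposited by the authors as whole numbers, 1 column per library, with no normalization that the values show. The builds named in the submitters' processing notes are GRCm38 and mm10, mouse assemblies, whereas all 20263 identifiers are human; no aligner, counter, strand setting or annotation is named (not given in the sources used here). Symbols were looked up by Ensembl identifier in a name table (20148 genes) or GENCODE 29 (76), and 39 had none. Groups and replicate numbers came from the sample titles.

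edgeR 4.0.16 in R 4.3.3 kept 13744 genes (filterByExpr, minimum count 10, minimum total 15), scaled libraries by TMM and ran a two-sided quasi-likelihood test with Benjamini-Hochberg adjustment over all genes tested. Standard errors are the log2 fold change over the square root of its F statistic. Alternatives used DESeq2 1.42.0, limma 3.58.1, other scalings and filters, a replicate block and each library left out. The test was tried on simulated data, but the outcome is not reported here and no statement in the text rests on it. Named genes were the 8 members, up to 4 called genes per list by adjusted p (the 2 with the most counts where none passed) and the 3 genes closest in pattern to each called member; other names were chosen after their values were seen. A few listed genes and motifs are not reported here. Members and lists were chosen with earlier results of these data known. Paired libraries of a group differed beyond counting noise (chi-square over its degrees of freedom 256.6 and 40.31). Proteins, phosphorylation and cleavage were not measured.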

Additional observations from a re-analysis of the deposited data

How the results depend on the processing

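Over 12 alternatives each, BBC3 kept its direction and its call in all (log2 fold change 2.25 to 2.68), and PMAIP1 kept its direction (0.97 to 1.22) and lost its call without either RB-BC library. With mitochondrially encoded genes removed, BBC3 was at 2.48 and PMAIP1 at 1.09. The number of members called higher was 1 at an adjusted p of 0.01, and 1 to 3 with a library left out, where BAD was added without DMSO 1 and BMF without DMSO 2; it was 2 with the replicate block, and 0 members were called lower in any of these edgeR, DESeq2 and limma-voom fits. With a library left out BCL2L11 ran from −0.89 to 0.42, turning to 0.42 without DMSO 1 and 0.21 without RB-BC 2, and BAX ran from −0.14 to 0.31, turning to −0.14 without DMSO 1 and −0.04 without RB-BC 1; the cause was not tested. Genes called over the whole table numbered 149 to 1888 higher and 56 to 1760 lower with a library left out; genes called lower were 415 with library totals alone and 1589 with DESeq2, where 790 and 1634 were higher, beside 1179 higher and 1035 lower. A fit without 1 library assumes that the lone library varies like the other group. With the replicate number as a block, 1152 genes were higher and 962 lower. The differences between libraries 1 and 2 correlated at −0.0746 between the groups over 13744 genes. This shows no pairing over the genes as a whole, but a single correlation cannot exclude a shared culture or batch. The depth limits BIK and HRK, which had at most 17 counts in a library.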
